A study of Rattus norvegicus with 12 samples.

Results

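The genes described are 9 that move sodium, chloride and water across the walls of the air spaces in rat lung, or control that movement: Scnn1a, Scnn1b, Scnn1g, Atp1b1, Nedd4l, Cftr, Aqp1, Aqp3 and Aqp4. They were chosen by name, as the probe sets whose annotated gene symbol is one of these, which gave 15 of the 31042 probe sets on the array and 9 of the 14217 genes tested. Lung RNA of wild-type male Sprague Dawley rats weighing 250 to 350 g was hybridised to 12 Affymetrix arrays, 3 in each of 4 groups. The sham group is labelled as the control. In the BD group brain death was brought about with a balloon catheter that was placed on the outer face of the dura and inflated. The SEW group had SEW-2871, an agonist of the sphingosine 1-phosphate receptor S1P1, intravenously at 0.1 mg/kg. The BD/SEW group had the same dose 15 min after brain death. The labels give no ages, no time of sampling and no animal numbers, and do not say whether the SEW rats had the sham operation, so an effect of the operation cannot be told apart from the others in comparisons with that group, and p-values measure the spread between these samples.

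Fluid leaves the air spaces because salt is pumped out of them and water follows. Sodium enters epithelial cells from the air side through the epithelial sodium channel ENaC, and the sodium pump moves it out on the tissue side. The chloride channel CFTR gives a parallel route for chloride. Aquaporins are the water pores of these membranes, each typical of certain cells. Brain death can be followed by lung oedema, and the comparisons ask whether the transcripts of this machinery differ after brain death, after the agonist, and after both.

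The water channel genes were the members that passed the test. Against SEW, 3 of the 9 fell in BD/SEW, where 5.04% of all genes fell: Aqp3 by 5.33-fold, Aqp1 by 2.15-fold and Aqp4 by 1.93-fold. Aqp1 rose 1.87-fold in SEW against sham, where 3.4% of all genes rose, and Aqp4 fell 1.81-fold in BD/SEW against sham, where 1.17% fell. None of the 3 ENaC subunit genes, Atp1b1, Nedd4l or Cftr passed in any of the 6 comparisons. The members were chosen with earlier results of these data known, so the shares over all genes are for scale and test nothing. A gene passed at a limma p under 0.05 after Benjamini-Hochberg adjustment over all 14217 genes, and levels below are log2 values of the probe set with the highest mean for the gene.

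**Figure D1:**
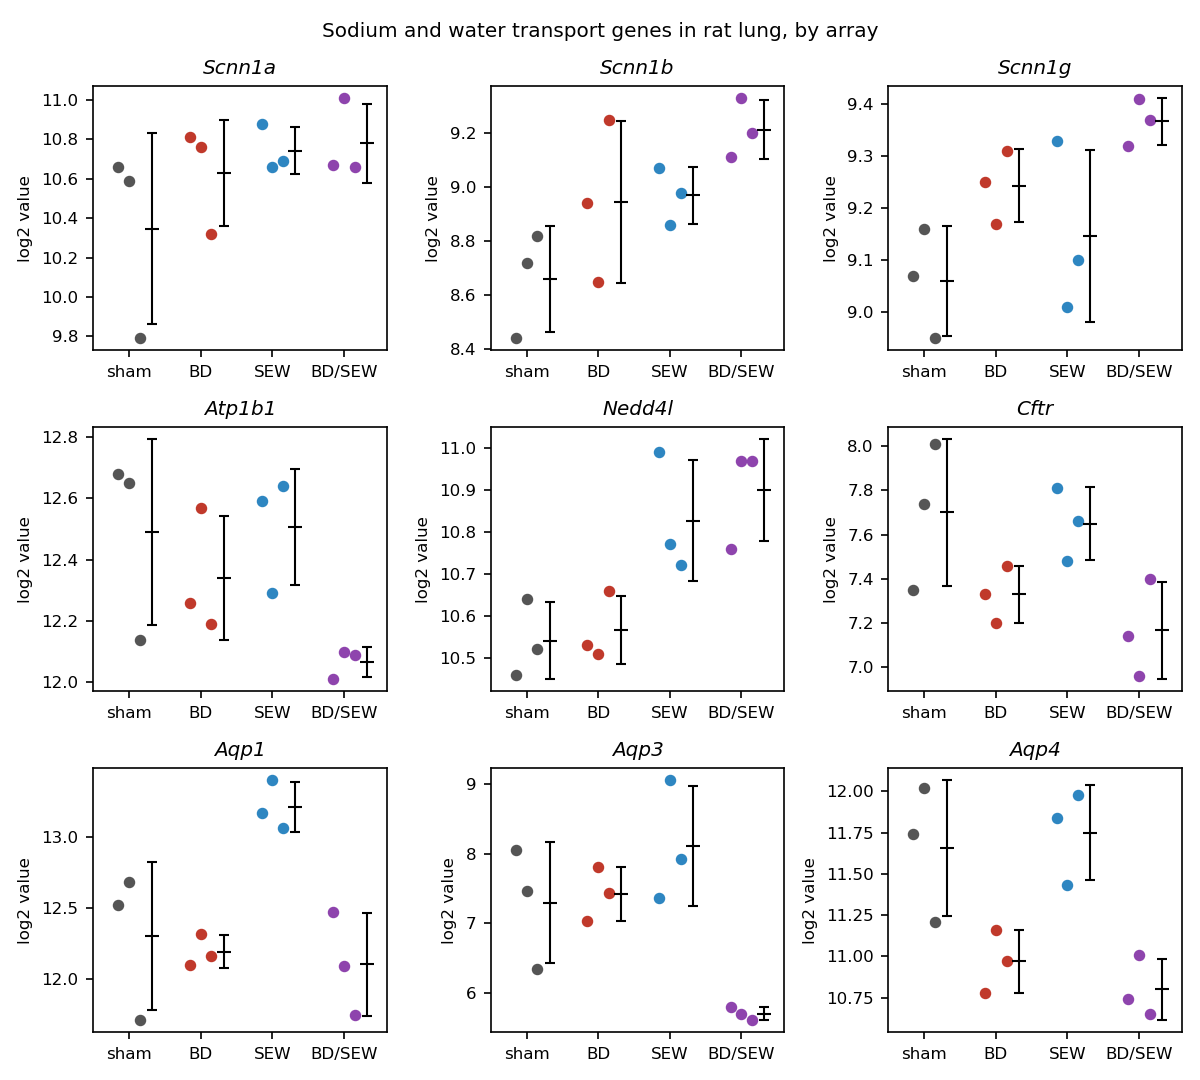
Log2 value of each member gene (vertical axes, each with its own range) in the 12 arrays, by group (horizontal axes). Points are arrays, replicates 1 to 3 from left to right; bars are mean and SD of the 3. The 3 BD/SEW arrays lie between 5.61 and 5.8 for Aqp3, under all other arrays, and the 3 SEW arrays lie highest for Aqp1.

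Some arrays stood apart. Means of 17 cardiac muscle markers were 9.63 to 10.6 in sham, 6.1 to 11.54 in BD, 5.71 to 7.49 in SEW and 5.97 to 8.23 in BD/SEW, and means of 10 adipose markers were 8.16 to 9.05, 5.68 to 8.49, 5.94 to 6.49 and 5.83 to 6.62. BD replicate 2 held the highest value of both in its group, and the highest airway marker mean of all arrays (10.65). Genes with several probe sets can show uneven signal along a transcript: in 1732 of 4525 such genes (38.3%) the gap between the brightest and the other probe sets was widest in sham replicate 3, where an even share over the arrays is 8.33%. The lung label was borne out by the alveolar type 2 markers, whose mean over 10 genes was 12.27 to 12.84 in all arrays, and by the 9 measured alveolar type 1 markers, at 11.26 to 11.84. Type 1 means were 11.26 to 11.39 in sham, 11.49 to 11.82 in BD, 11.3 to 11.73 in SEW and 11.66 to 11.84 in BD/SEW. Type 2 means were 12.27 to 12.51, 12.48 to 12.71, 12.59 to 12.84 and 12.65 to 12.71. The part of these shifts in the results of the members was not tested. In bulk tissue, fewer cells of a type and less RNA per cell cannot be told apart. Cardiac and airway means in SEW and BD/SEW did not overlap those of sham. In those comparisons with sham, a fit with either mean as a covariate cannot tell it from the group.

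The ENaC channel is built of alpha, beta and gamma subunits, encoded by Scnn1a, Scnn1b and Scnn1g. All 3 had higher means in BD, SEW and BD/SEW than in sham, and none passed. Scnn1b, which is needed for full channel activity, was 8.44, 8.72 and 8.82 in sham, 8.94, 8.65 and 9.25 in BD, 9.07, 8.86 and 8.98 in SEW, and 9.11, 9.33 and 9.2 in BD/SEW. The BD/SEW arrays were above all sham and SEW arrays, and the BD arrays overlapped every other group. Its difference in BD/SEW against sham was 0.55 ± 0.15 (log2 difference ± SE, n = 3 per group, 95% interval 0.22 to 0.89, adjusted p = 0.084). It passed without BD replicate 2, where the difference was again 0.55 (adjusted p = 0.047).

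Scnn1g was 9.07, 9.16 and 8.95 in sham, 9.25, 9.17 and 9.31 in BD, 9.33, 9.01 and 9.1 in SEW, and 9.32, 9.41 and 9.37 in BD/SEW. The 3 BD/SEW arrays lay above all sham and BD arrays and overlapped SEW by a single array, SEW replicate 1. Against sham, the difference was 0.31 ± 0.11 with both (adjusted p = 0.15), 0.18 ± 0.11 with brain death alone (adjusted p = 0.57) and 0.09 ± 0.11 with the agonist alone (adjusted p = 0.64). The second Scnn1g probe set did not show this order. Its differences against sham were 0.54 ± 0.16 with both, 0.42 ± 0.16 in BD and 0.55 ± 0.16 in SEW. None passed over all probe sets (limma adjusted p = 0.12, 0.35 and 0.086), and BD/SEW and SEW differed by 0 ± 0.16. Scnn1a, the pore subunit without which lung fluid is not cleared at birth in mice, had a mean of 10.35 ± 0.48 in sham (± SD, n = 3). The other means were 10.63 ± 0.27 in BD, 10.74 ± 0.12 with the agonist alone and 10.78 ± 0.2 with both. Its sham spread came from replicate 3, at 9.79 against 10.66 and 10.59. On the second Scnn1a probe set that array read 7.58 against 9.2 and 9.02, and on the second Scnn1g probe set 7.05 against 7.61 and 7.76. Against sham, the 95% intervals of the Scnn1a difference reached up to 0.76 in BD, 0.87 with the agonist alone and 0.91 with both, and each held 0, so this number of arrays leaves wide bounds.

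Nedd4l encodes a ubiquitin ligase that takes ENaC off the membrane. It was 10.46, 10.64 and 10.52 in sham, 10.53, 10.51 and 10.66 in BD, 10.99, 10.77 and 10.72 in SEW, and 10.76, 10.97 and 10.97 in BD/SEW. All 6 arrays with the agonist were above all 6 without it. The differences were small and did not pass: 0.29 ± 0.1 in SEW against sham (adjusted p = 0.11) and 0.33 ± 0.1 in BD/SEW against BD (adjusted p = 0.79, rank 128 of all genes by p). In BD/SEW against sham the Nedd4l difference was 0.36 ± 0.1 and did not pass either (limma adjusted p = 0.089). Brain death itself gave 0.03 ± 0.1 without the agonist and 0.07 ± 0.1 with it.

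Atp1b1, the beta 1 subunit that carries the sodium pump to the membrane, was 12.68, 12.65 and 12.14 in sham, 12.26, 12.57 and 12.19 in BD, 12.59, 12.29 and 12.64 in SEW, and 12.01, 12.1 and 12.09 in BD/SEW. The BD/SEW arrays were the 3 lowest of the 12. The difference was -0.44 ± 0.15 against SEW (adjusted p = 0.098) and -0.42 ± 0.15 against sham (adjusted p = 0.17). Without sham replicate 3 both passed, at -0.44 (adjusted p = 0.031) and -0.6 (adjusted p = 0.042). On the second Atp1b1 probe set the differences were -0.34 ± 0.15 and -0.38 ± 0.15, and the arrays of the groups overlapped in both.

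Cftr, the chloride channel gene mutated in cystic fibrosis, was 7.35, 7.74 and 8.01 in sham, 7.33, 7.2 and 7.46 in BD, 7.81, 7.48 and 7.66 in SEW, and 7.14, 6.96 and 7.4 in BD/SEW. All SEW arrays were above all BD and BD/SEW arrays, and sham overlapped each group. The difference was -0.48 ± 0.17 in BD/SEW against SEW (adjusted p = 0.11) and -0.37 ± 0.17 in BD against sham (adjusted p = 0.47). It was -0.53 ± 0.17 in BD/SEW against sham (limma adjusted p = 0.13).

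The stretches before the start sites of Aqp1 and Aqp3, members that fell in BD/SEW against SEW, are shown because they alone among the members with a RefSeq entry hold the motif TATAAA. The promoter table of RefSeq (assembly GRCr8) held 7 of the 9 members, and the 250 bases before each start were searched on both strands for TATAAA, where the general transcription machinery can bind, GGGCGG, the box for Sp1-like factors, AGAACA, part of steroid receptor sites, and TGACG, part of cyclic AMP elements. The Aqp1 stretch is chr4:85812534-85812783 on the plus strand and the Aqp3 stretch is chr5:61040684-61040933 on the minus strand. Both are written 5′ to 3′ and end at the base before the start site, with TATAAA and GGGCGG (or its reverse complement) in capitals.
Aqp1: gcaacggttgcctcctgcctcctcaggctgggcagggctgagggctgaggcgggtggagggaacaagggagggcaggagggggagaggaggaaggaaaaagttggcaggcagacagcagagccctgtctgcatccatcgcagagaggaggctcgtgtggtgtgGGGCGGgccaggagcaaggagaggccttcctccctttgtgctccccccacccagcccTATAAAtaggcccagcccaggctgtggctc
Aqp3: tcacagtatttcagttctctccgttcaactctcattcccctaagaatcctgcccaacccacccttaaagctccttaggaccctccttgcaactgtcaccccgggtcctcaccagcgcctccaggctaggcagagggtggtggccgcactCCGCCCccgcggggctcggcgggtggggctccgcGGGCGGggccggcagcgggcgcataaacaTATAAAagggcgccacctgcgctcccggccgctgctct
The TATAAA motif begins 30 bases before the start of Aqp1 and 38 before that of Aqp3, and 12.9% of all 33465 such stretches hold one on either strand. The GGGCGG motif, on either strand, begins 87 bases before the start of Aqp1 and 67 and 101 before that of Aqp3 (30.5% of stretches hold one). Neither stretch held AGAACA (17.5% of stretches) or TGACG (18.2%). AGAACA was in none of the members' stretches, and TGACG was only in that of Scnn1b. The motifs do not overlap in these stretches, and a match is a description of letters, not a sign of binding.

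Aqp1 encodes the water channel of lung capillary endothelium. It was 12.52, 12.68 and 11.71 in sham, 12.1, 12.32 and 12.16 in BD, 13.17, 13.4 and 13.06 in SEW, and 12.47, 12.09 and 11.75 in BD/SEW. The 3 SEW arrays lay above all the others, and the other groups overlapped each other. Aqp1 fell by 1.11 on the log2 scale in BD/SEW against SEW (SE 0.23, 95% interval -1.62 to -0.59, adjusted p = 0.012) and was higher by 0.91 ± 0.23 in SEW against sham (adjusted p = 0.046). The fall passed in 11 of 12 fits with 1 array left out, the exception being without BD/SEW replicate 3 (-0.93, adjusted p = 0.053), and not with the mean of both probe sets (-1.36, adjusted p = 0.055). The rise passed in only 3 of 12, those without sham replicate 2, BD replicate 2 or BD/SEW replicate 3; it was 0.61 (adjusted p = 0.1) without sham replicate 3, and 0.93 (adjusted p = 0.33) with the cardiac marker mean as a covariate.

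The second Aqp1 probe set showed larger differences with wider spread. It read 11.15, 11.35 and 8.85 in sham, 12.02, 12.48 and 11.84 in SEW, and 11.12, 10.55 and 9.85 in BD/SEW, and it was 1.66 ± 0.55 higher in SEW than in sham and 1.61 lower in BD/SEW than in SEW, with neither passing over all probe sets (adjusted p = 0.12 and 0.11). The gap between the probe sets was 2.86 in sham replicate 3 and 0.92 to 1.9 in the other 11 arrays. Endothelial markers (10 measured) had list means of 11.68 to 11.91 in sham and 11.76 to 11.97 in BD. These means were 12.02 to 12.1 in SEW and 11.89 to 11.93 in BD/SEW. Only the list mean was thus highest in the SEW arrays, over a much smaller range than Aqp1. Single markers went both ways: 8 were higher and 2 lower in SEW than in sham, and 3 higher and 7 lower in BD/SEW than in SEW. Kdr, 1 of those 3, read 12.29 to 12.38 in SEW and 12.5 to 12.69 in BD/SEW. The part of these markers in the Aqp1 result was not tested.

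Aqp3 encodes a channel for water and glycerol found in airway epithelium, basal cells above all. It was 8.06, 7.47 and 6.35 in sham, 7.03, 7.81 and 7.44 in BD, 7.36, 9.06 and 7.92 in SEW, and 5.8, 5.69 and 5.61 in BD/SEW. Every BD/SEW array was below every other array, and the sham, BD and SEW arrays overlapped. Aqp3 fell by 2.41 on the log2 scale in BD/SEW against SEW (SE 0.45, 95% interval -3.39 to -1.43, adjusted p = 0.0056). This passed in all 12 fits with 1 array left out and under all 13 other settings tried. The settings share the same arrays and are not separate tests. As Aqp3 has a single probe set, those on probe sets kept its values. The filter on dim genes took the mean over all arrays, and the BD/SEW values of Aqp3 alone lay under its level of 6.56. Against BD the difference was -1.73 ± 0.45 (adjusted p = 0.7, rank 50 by p) and against sham -1.59 ± 0.45 (adjusted p = 0.086). The last passed without sham replicate 3 (-2.06, adjusted p = 0.033) and without SEW replicate 2 (-1.59, adjusted p = 0.038).

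The BD/SEW values of Aqp3 lay at or just above the lower quartiles of the 12 arrays, 5.56 to 5.66, and since signal over background was not measured the size of its fall is uncertain. The airway secretory and basal markers (9 of 10 measured) had means of 10.37 to 10.56 in sham, 8.57 to 10.65 in BD, 7.43 to 9.28 in SEW and 8.11 to 8.7 in BD/SEW. The BD/SEW range lay within the SEW range, and 0 of the 9 passed in BD/SEW against SEW (3 higher, 6 lower, median -0.08). Aqp3, Aqp1 and Aqp4 each passed in that comparison with the airway mean as a covariate and with the cardiac mean as one. With 3 arrays a group, these fits do not measure the part of any cell type. Of the keratin genes in the list, Krt5 read 5.59 to 5.85 in SEW and 5.68 to 5.73 in BD/SEW, close to the lower quartiles. Krt15 read 6.42 to 8.02 and 7 to 7.95. The part of basal or other cells in these falls was not tested.

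**Figure D2:**
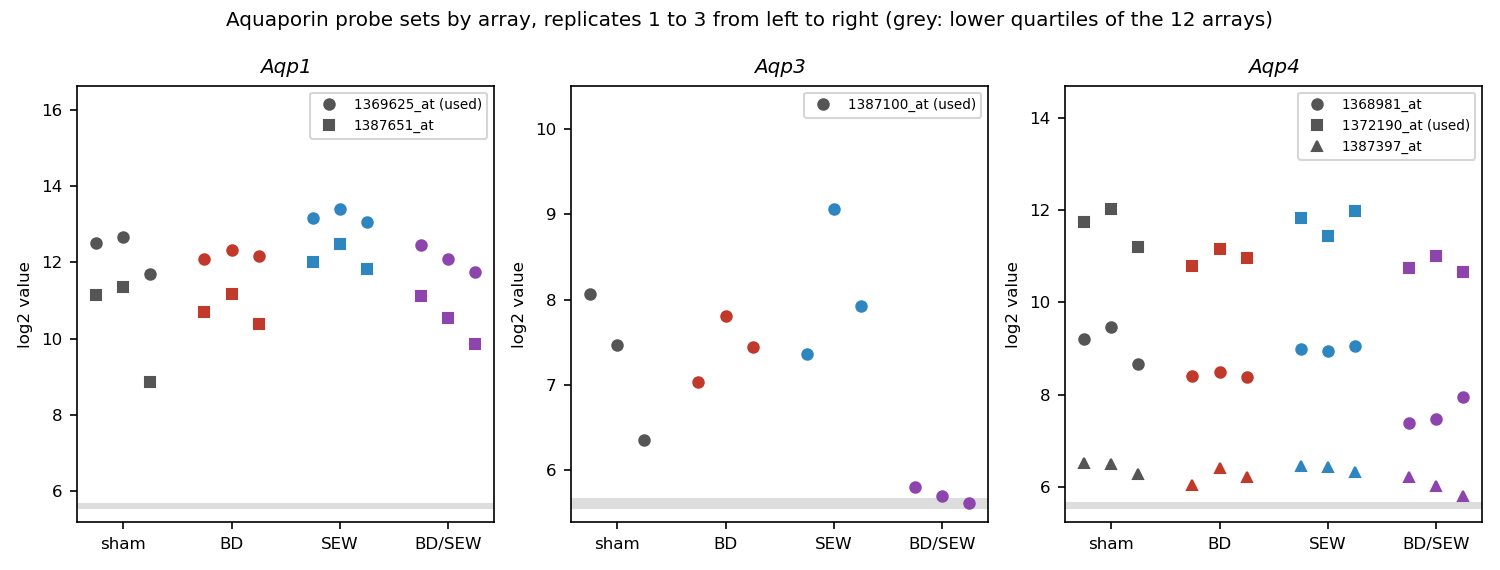
Log2 value (vertical axes) of every probe set of Aqp1 (2), Aqp3 (1) and Aqp4 (3) in the 12 arrays, by group, replicates 1 to 3 from left to right. The grey band is the range of the arrays' lower quartiles, 5.56 to 5.66, which a single BD/SEW array (5.61) reaches for Aqp3 while the others lie just above it; the second Aqp1 probe set drops to 8.85 in sham replicate 3.

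Aqp4 encodes the water channel of the tissue-facing side of airway epithelium, also found in muscle and glia. It was 11.74, 12.02 and 11.21 in sham, 10.78, 11.16 and 10.97 in BD, 11.84, 11.43 and 11.98 in SEW, and 10.74, 11.01 and 10.65 in BD/SEW. All 6 arrays with brain death were below all 6 without it. Aqp4 fell by 0.95 on the log2 scale in BD/SEW against SEW (SE 0.2, 95% interval -1.4 to -0.5, adjusted p = 0.013) and fell by 0.86 in BD/SEW against sham (SE 0.2, adjusted p = 0.049). Against sham, BD differed by -0.69 ± 0.2 and did not pass (adjusted p = 0.19), while BD/SEW and BD differed by -0.17 ± 0.2.

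The fall of Aqp4 against SEW passed in 9 of 12 fits with 1 array left out, the exceptions being without SEW replicate 3 (-0.83, adjusted p = 0.053), BD/SEW replicate 1 (-0.92, adjusted p = 0.052) and BD/SEW replicate 3 (-0.88, adjusted p = 0.054). The fall against sham passed in 3 of 12, those without sham replicate 3, BD replicate 2 or SEW replicate 2, and not with the replicate number as a block (adjusted p = 0.06) nor with the cardiac (-0.67, adjusted p = 0.52) or airway mean (-0.79, adjusted p = 0.79) as a covariate. A second Aqp4 probe set read 9.21, 9.46 and 8.66 in sham, 8.41, 8.5 and 8.38 in BD, 8.99, 8.96 and 9.06 in SEW, and 7.39, 7.47 and 7.95 in BD/SEW. On it BD/SEW fell by 1.4 against SEW (SE 0.2, adjusted p = 0.0016 over all probe sets) and fell by 1.51 against sham (SE 0.2, adjusted p = 0.0047), and every BD/SEW array lay below every BD array. The third, dimmer probe set (5.81 to 6.53) differed by -0.39 ± 0.13 against SEW and did not pass (adjusted p = 0.096).

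Comparison by comparison, 0 of the 9 members passed in BD against sham, where 0.591% of all genes did (limma; 1 member, Aqp4, had an unadjusted p under 0.05, as did 11% of all genes). Their median log2 difference was 0.03, and that of all genes 0.003. With the agonist alone against sham 1 of 9 rose, Aqp1, where 3.4% of all genes rose and 5.84% passed in either direction; 8 of the 9 were higher, with a median of 0.29 against 0.017 for all genes, and 2 had an unadjusted p under 0.05 (25.6% of all genes). Against BD, 0 of 9 passed in BD/SEW, where 0.0141% of all genes did; Aqp3 and Nedd4l had an unadjusted p under 0.05 (5.44% of all genes), and the members' median was -0.09 against 0.007. Against SEW, 3 of 9 fell in BD/SEW, where 5.04% of all genes fell and 9.79% passed in either direction; the members' median was -0.44 against -0.007, and 5 had an unadjusted p under 0.05 (23.8% of all genes). Against sham, 1 of 9 fell in BD/SEW, Aqp4, where 1.17% of all genes fell and 2.87% passed in either direction, and 7 of 9 had an unadjusted p under 0.05, as did 17.5% of all genes (median -0.2 against 0.01).

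**Figure D3:**
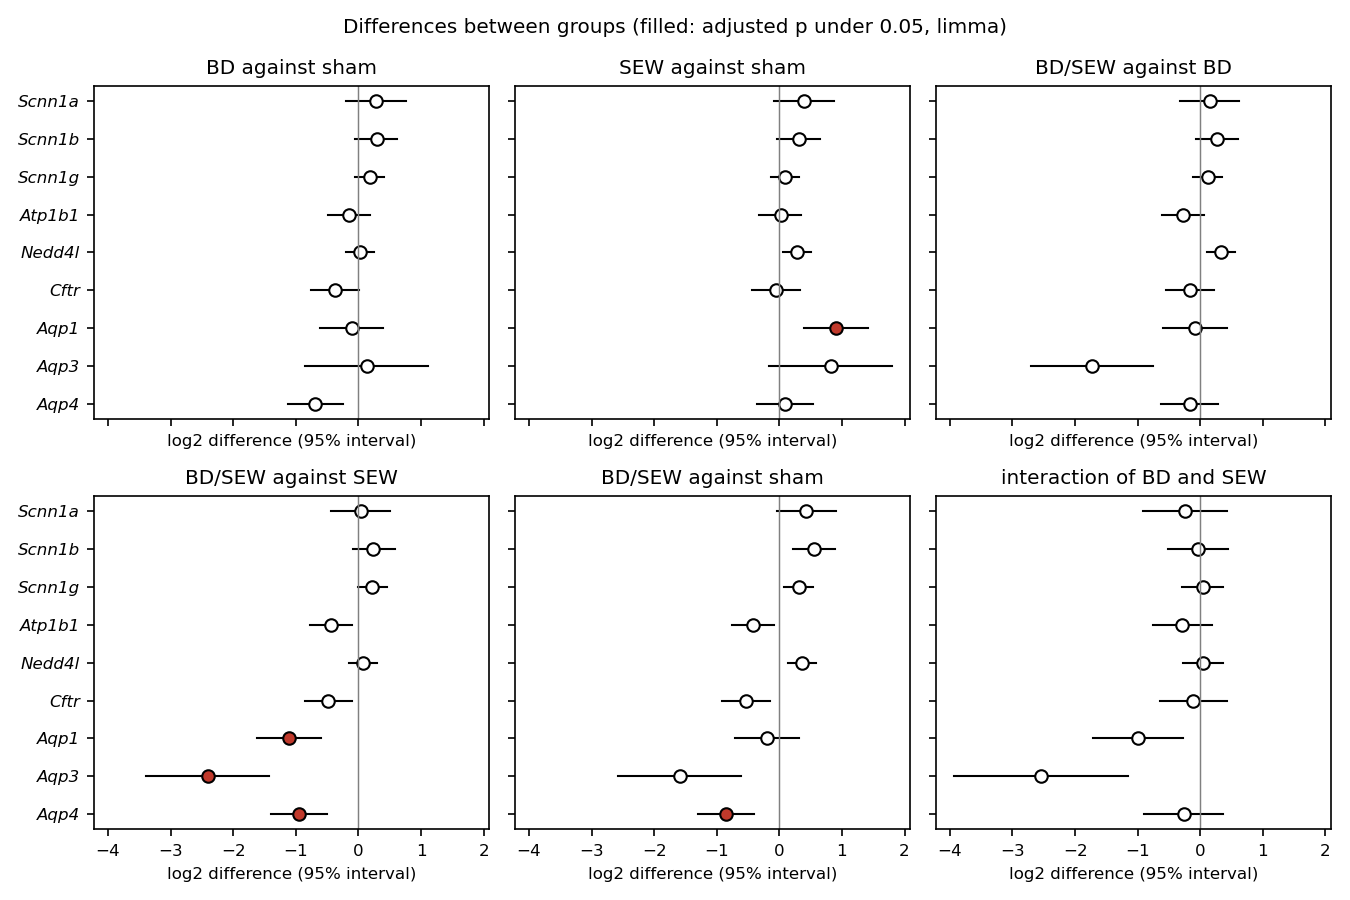
Log2 difference of each member (horizontal axes, with 95% interval from limma) in the 6 comparisons; filled points passed at an adjusted p under 0.05. Filled points are Aqp1 in SEW against sham, Aqp1, Aqp3 and Aqp4 in BD/SEW against SEW, and Aqp4 in BD/SEW against sham. In BD/SEW against sham the intervals of Scnn1b, Scnn1g and Nedd4l lie above 0 and those of Atp1b1, Cftr, Aqp3 and Aqp4 below 0. The interval of Scnn1a spans 0 in all 6.

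The arrays of BD/SEW and SEW did not overlap in 6 of the 9 members, 5 lower (Atp1b1, Cftr, Aqp1, Aqp3 and Aqp4) and 1 higher (Scnn1b), where 31.8% of all genes did not overlap (18.6% lower, 13.2% higher). BD/SEW and sham also did not overlap in 6 of 9, where 25.9% of all genes did not (13.7% higher, 12.2% lower): Scnn1b, Scnn1g and Nedd4l were higher, and Atp1b1, Aqp3 and Aqp4 lower. BD/SEW and BD did not overlap in 4 of 9 (12.4% of all genes, 7.9% higher and 4.55% lower), with Scnn1g and Nedd4l higher and Atp1b1 and Aqp3 lower. For SEW and sham it was 3 of 9 (27.1% of all genes, 16.4% higher and 10.6% lower), all higher, and for BD and sham 2 of 9 (15.7% of all genes, 7.95% higher and 7.74% lower), Scnn1g higher and Aqp4 lower. Comparisons that share a group share its arrays, sham replicate 3 among them.

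Whether the agonist alters the brain-death difference is the interaction, the difference BD/SEW less SEW minus the difference BD less sham. It passed for 0 of the 9 members, where 0.95% of all genes passed (limma; 2 members at an unadjusted p under 0.05, as were 12.5% of all genes). Aqp3 came nearest, with an interaction of -2.55 ± 0.63 (95% interval -3.93 to -1.16, adjusted p = 0.099): brain death went with a difference of 0.13 ± 0.45 without the agonist and -2.41 ± 0.45 with it. For Aqp1 the interaction was -1 ± 0.33 (adjusted p = 0.24), with brain-death differences of -0.11 ± 0.23 and -1.11 ± 0.23. For Aqp4 it was -0.26 ± 0.29 (interval -0.9 to 0.37, adjusted p = 0.76). The other Aqp4 probe sets gave -0.72 ± 0.28 on the second and -0.18 ± 0.18 on the third (adjusted p = 0.38 and 0.74 over all probe sets). On the second, BD/SEW and BD differed by -0.83 ± 0.2 (adjusted p = 0.81). With array weights the Aqp3 interaction passed, at -1.89 ± 0.43 (adjusted p = 0.036).

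The other genes of the pathway were taken from lists of 56 genes, of which 48 are described here. Of the 48, 3 rose and 2 fell in BD/SEW against SEW, where 9.79% of all genes passed, and 2 rose in BD/SEW against sham, where 2.87% passed. With the agonist alone against sham 3 rose and 1 fell, where 5.84% of all genes passed, and in BD against sham 1 rose, where 0.591% passed. None passed in BD/SEW against BD or in the interaction (limma; 2 and 7 at an unadjusted p under 0.05, beside 5.44% and 12.5% of all genes). Medians over the 48 lay between -0.08 (interaction) and 0.03. None of the 5 measured sodium pump subunits and regulators passed in any comparison.

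Among 16 measured genes that control ENaC, 1 rose (Sgk1) and 2 fell (Tsc22d3 and Usp10) in BD/SEW against SEW, where 9.79% of all genes passed and 5.04% fell. Sgk1 encodes a kinase, induced by steroid hormones and stress, that keeps the Nedd4l product from removing ENaC. Its level was 11.66, 11.73 and 11.33 in sham, 12, 12.38 and 12.4 in BD, 11.74, 11.09 and 11.3 in SEW, and 12.55, 12.7 and 12.52 in BD/SEW, so all 6 brain-death arrays were above all 6 others. Sgk1 rose by 1.21 ± 0.17 in BD/SEW against SEW (adjusted p = 0.0012) and by 1.02 ± 0.17 in BD/SEW against sham (adjusted p = 0.011), the latter not without BD/SEW replicate 2 (0.96, adjusted p = 0.067) nor with the cardiac (1.09, adjusted p = 0.14) or airway mean (0.87, adjusted p = 0.61) as a covariate; BD against sham gave 0.69 ± 0.17 (adjusted p = 0.11).

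Tsc22d3, the glucocorticoid-induced leucine zipper gene, whose product raises ENaC at the membrane, went the other way. It was 12.6, 12.38 and 12.15 in sham, 12.01, 12.11 and 12.21 in BD, 12.69, 13.25 and 12.94 in SEW, and 11.79, 11.9 and 11.84 in BD/SEW. It fell by 1.12 in BD/SEW against SEW (SE 0.14, adjusted p = 0.00074, passing in 12 of 12 fits with 1 array left out) and was higher by 0.58 ± 0.14 in SEW against sham (adjusted p = 0.039, passing in 3 of 12, those without sham replicate 1, BD replicate 2 or SEW replicate 1). Usp10, a deubiquitinase, fell by 0.66 in BD/SEW against SEW (SE 0.14, adjusted p = 0.012). Prss8, a protease that cleaves and activates ENaC, rose by 0.68 ± 0.15 in SEW against sham (adjusted p = 0.028), but not without sham replicate 1 or 3 or any 1 of the SEW arrays (0.53 to 0.71, adjusted p 0.054 to 0.072). Nedd4, the near relative of Nedd4l, did not pass in any comparison, and its probe sets differ: in sham replicate 3 the brightest read 12.99, near the 12.96 and 12.97 of the other sham arrays, while another read 7.97 against 10.71 and 10.77.

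**Figure D4:**
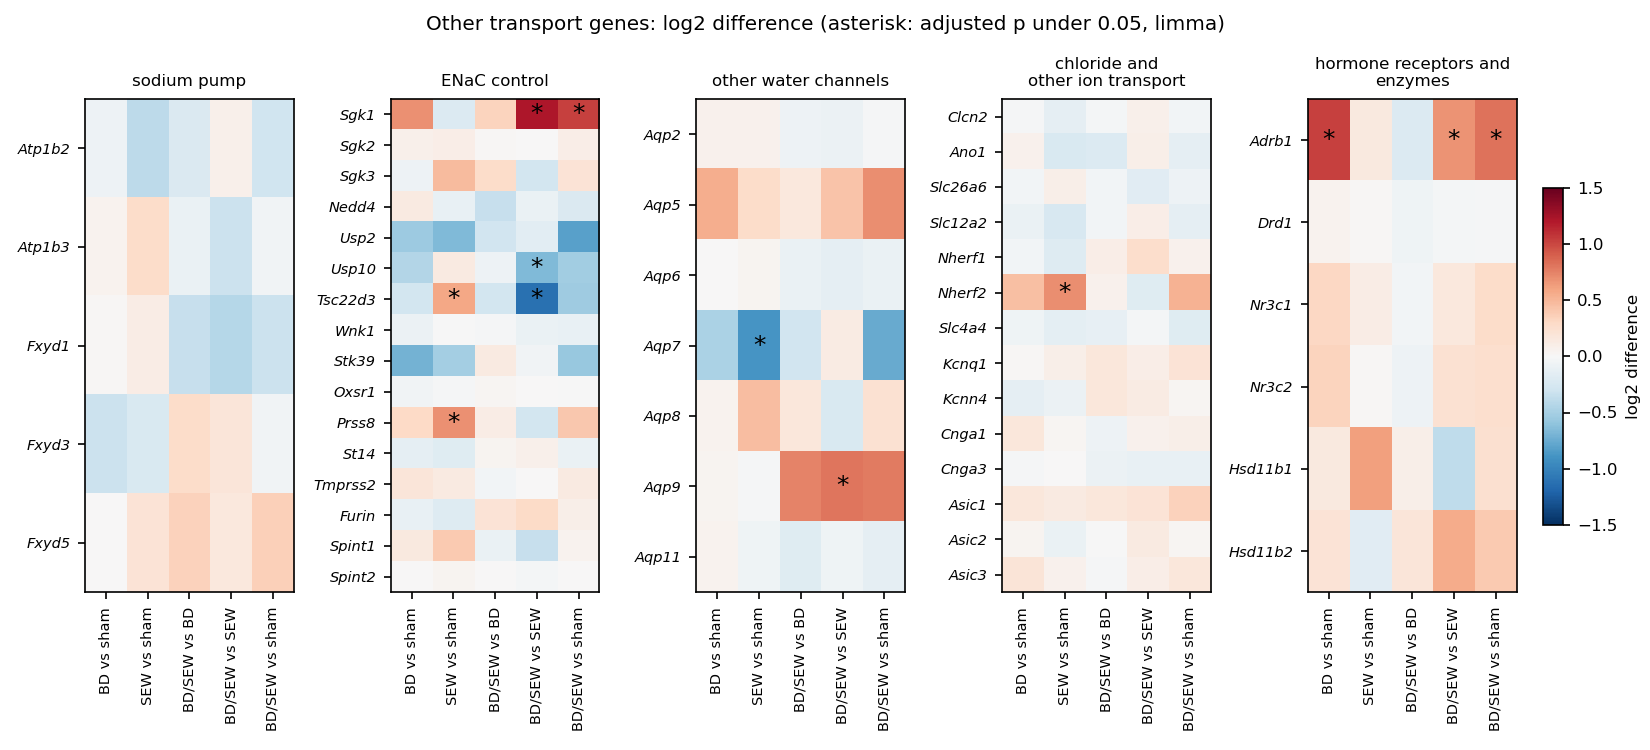
Log2 difference (colour, red higher and blue lower, capped at 1.5) of the 48 other transport genes (rows, by list) in 5 comparisons (columns); asterisks mark an adjusted p under 0.05 by limma. Asterisks stand on 3 raised and 2 lowered genes in BD/SEW against SEW, among them Sgk1 (1.21) and Tsc22d3 (-1.12).

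Of the 7 other water channel genes, Aqp5, the pore of the alveolar type 1 cell surface, was 10.39 to 10.62 in sham, 10.69 to 11.39 in BD, 10.13 to 11.23 in SEW and 11.07 to 11.32 in BD/SEW, and did not pass (0.7 ± 0.25 in BD/SEW against sham, adjusted p = 0.17). Aqp9, a channel of leukocytes and liver, rose by 0.8 ± 0.23 in BD/SEW against SEW (adjusted p = 0.047), and with 1 array left out passed only without BD replicate 2, BD replicate 3 or SEW replicate 2. It did not pass with the cardiac or airway mean as a covariate (0.81 in both, adjusted p = 0.052 and 0.063). The means of 6 neutrophil markers were 8.82 to 10.8 in SEW and 11.29 to 11.75 in BD/SEW, and their part in the Aqp9 result was not tested. Aqp7, the glycerol channel of fat cells, fell by 0.89 in SEW against sham (SE 0.21, adjusted p = 0.036; with 1 array left out, only without sham replicate 2 or 1 of the BD arrays), the comparison in which the adipose mean was 8.16 to 9.05 in sham and 5.94 to 6.49 in SEW. Its SEW arrays read 5.15 to 5.34, below the lower quartile of every array, so the size of its fall is uncertain.

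Among 6 measured hormone receptor and enzyme genes Adrb1, the beta 1 adrenergic receptor, rose in BD against sham (1.02 ± 0.19, adjusted p = 0.04), BD/SEW against SEW (0.67 ± 0.19, adjusted p = 0.048) and BD/SEW against sham (0.82 ± 0.19, adjusted p = 0.045). It was 6.71, 6.62 and 6.4 in sham, 7.98, 7.14 and 7.67 in BD, 6.81, 6.81 and 6.57 in SEW, and 7.51, 7.19 and 7.49 in BD/SEW, so all brain-death arrays were above all others. With 1 array left out the calls held only without BD replicate 2 or SEW replicate 2 in the first, without sham replicate 3, BD replicate 1 or BD replicate 2 in the second, and without BD replicate 1, BD replicate 2 or SEW replicate 2 in the third. With the cardiac and the airway mean as covariates the difference against sham was 0.82 and 0.81 in BD (adjusted p = 0.12 and 0.18) and 0.46 and 0.35 in BD/SEW (adjusted p = 0.58 and 0.94), so neither call passed, while that against SEW did (0.7 and 0.62, adjusted p = 0.016 and 0.04). Nr3c1 and Nr3c2, the glucocorticoid and mineralocorticoid receptor genes, did not pass in any comparison; in BD against sham they gave 0.31 ± 0.09 and 0.33 ± 0.15 (adjusted p = 0.18 and 0.47). Of 14 measured genes of chloride and other ion transport only Nherf2 (Slc9a3r2), a scaffold for membrane transporters, passed, rising by 0.7 ± 0.16 in SEW against sham (adjusted p = 0.035), but not without sham replicate 1 or 2, BD replicate 3, SEW replicate 1 or 2, or BD/SEW replicate 2. With the cardiac mean as a covariate, none of the 4 calls in SEW against sham passed: the difference was 0.67 for Tsc22d3 (adjusted p = 0.24), 0.54 for Nherf2 (0.38), 0.47 for Prss8 (0.37) and -0.42 for Aqp7 (0.47). With the airway mean none of the 4 passed either (0.81, 0.49, 0.48 and -0.52, adjusted p 0.2 to 0.5). Over all genes the airway mean left 12 calls instead of 830 in this comparison. Sham and SEW arrays did not overlap in either mean, so these fits cannot tell the covariate from the group.

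**Figure D5:**
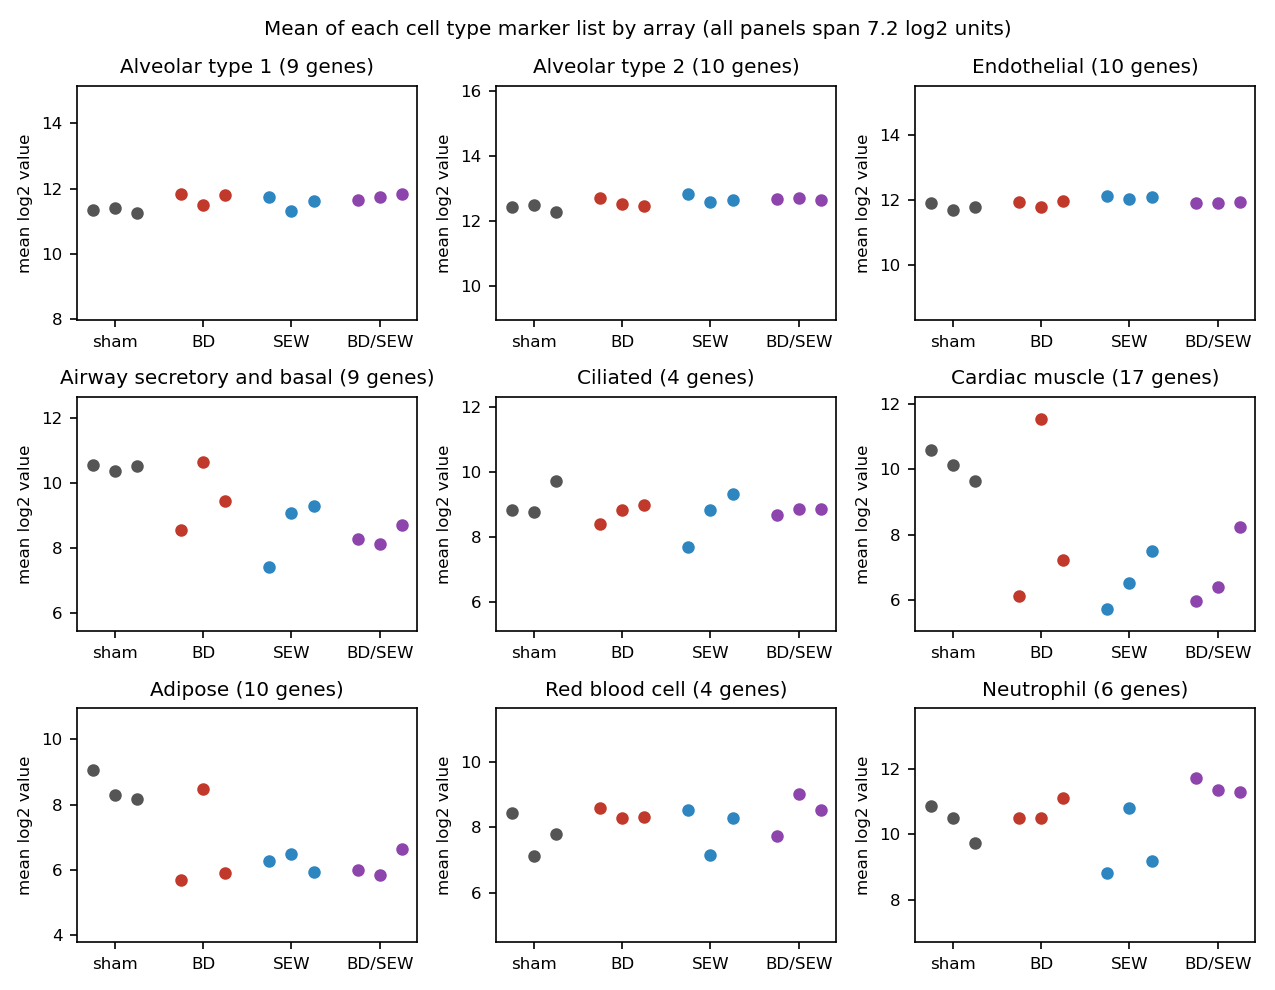
Mean log2 value of each cell type marker list (vertical axes, all of the same span) in the 12 arrays, by group, replicates 1 to 3 from left to right. Alveolar and endothelial means vary less (12.27 to 12.84 for alveolar type 2) than airway, cardiac and adipose means, which are high in sham and in BD replicate 2. Alveolar type 1 means are 11.26 to 11.39 in sham and 11.66 to 11.84 in BD/SEW.

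The genes whose levels followed the passing water channels most closely over the 12 arrays were, for Aqp1, Cdk2ap1 (Pearson r = 0.97), Anxa3 (0.96) and Cyp2d4 (0.96). For Aqp3 they were Dpy19l4 (0.92), Uimc1 (0.91) and Pcmtd2 (0.88). For Aqp4 they were Errfi1 (0.96), Got1 (0.95) and Sesn1 (0.94). These were picked as the highest over all other genes and the arrays share their group differences, so they describe a pattern and carry no test.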

How the data were processed

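The deposited table holds log2 probe set values with 2 decimals for 12 arrays. The submitters' processing notes list RMA, MAS5 and affy without versions or roles, and how the authors filtered probe sets is not given in the sources used here. Array medians lay between 7.34 and 7.41. Precision is limited by the number of arrays; no depth applies, and no 2 of the 12 arrays held identical values. Symbols came from the annotation table of the array (20826 probe sets with 1 symbol, 436 with several, 9780 with none) and were updated through the RefSeq gene table of assembly GRCr8 (20758 matched). For the 4525 genes with several probe sets the one with the highest mean was used.

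Group means were fitted with limma 3.58.1 in R 4.3.3 over all 12 arrays with variances moderated on a mean trend. The tests were two-sided and p-values were adjusted over 14217 genes. By their mean over all 12 arrays, all 9 members lay above the 25th percentile of gene means (6.56). The Aqp3 values in BD/SEW (5.61 to 5.8) and in sham replicate 3 (6.35) lay under it. In 10 simulated draws with 200 changed genes among 14217, BD against sham recovered 48.2% of 1.5-fold, 83% of 2-fold and 97.7% of 4-fold changes. The interaction recovered 21.4%, 62.5% and 90.4%. False calls averaged 7.3 and 6.1 a draw. The noise was independent, with the same SD for a gene in all arrays, and a single group was changed. The real arrays had weights from 0.25 (sham replicate 3) to 2.64 (BD/SEW replicate 2), so these shares need not hold for them. The members and lists were chosen with earlier results of these data known. The text names all 9 members, pathway genes that passed (up to 6 a comparison by p), some pathway genes fixed by name, and the 3 genes most alike to each passing member.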

Additional observations from a re-analysis of the deposited data

How the results depend on the processing

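Alternatives were the compared arrays only (the same fit for the interaction), the replicate number as a block, no mean trend, array weights, every probe set, the mean of a gene's probe sets, dim genes left out, an adjusted p under 0.01, median centring, the cardiac marker mean as a covariate, 3 arrays left out (sham replicate 3, SEW replicate 2, BD replicate 2) and each array left out in turn. The airway covariate and leaving out sham replicate 3 with BD replicate 2 were chosen after seeing the data. In BD against sham the count of 0 members became 1 with array weights and 1 without sham replicate 3 and BD replicate 2 (Aqp4), and 2 without the 3 arrays (Aqp4, Atp1b1). In SEW against sham the count of 1 became 0 with the compared arrays only, array weights, every probe set, the mean of probe sets, an adjusted p under 0.01, the cardiac covariate, the airway covariate, without the 3 arrays, and without sham replicate 3 and BD replicate 2. In BD/SEW against BD the count of 0 became 1 with the compared arrays only (Aqp3, adjusted p = 0.048). In BD/SEW against SEW the count of 3 became 5 with array weights (adding Atp1b1 and Cftr) and 1 at an adjusted p under 0.01 (Aqp3). It was 4, with Atp1b1 added, with the compared arrays only (adjusted p = 0.049), without the 3 arrays (0.0011) and without sham replicate 3 and BD replicate 2 (0.015), and 2 with the mean of probe sets, which lost Aqp1. In BD/SEW against sham the count of 1 became 0 with the compared arrays only, the replicate block, no mean trend, every probe set, an adjusted p under 0.01, the cardiac covariate and the airway covariate. It became 7 with array weights (adding Scnn1b, Scnn1g, Atp1b1, Aqp3, Cftr and Nedd4l), and 4 without the 3 arrays or without sham replicate 3 and BD replicate 2 (adding Scnn1b, Atp1b1 and Aqp3). The interaction count of 0 became 1 with array weights. With 1 array left out the counts ran from 0 to 0 in BD against sham, 0 to 1 in SEW against sham, 0 to 0 in BD/SEW against BD, 1 to 4 in BD/SEW against SEW (1 without BD/SEW replicate 3), 0 to 3 in BD/SEW against sham (3 without sham replicate 3) and 0 to 0 in the interaction. No call of a member or named gene changed sign. Of 54 pairs of member and comparison, 37 never passed under any setting and 12 passed only under an alternative.

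The labels do not say that replicate numbers pair the rats. Deviations of same-numbered arrays correlated between -0.09 and 0.38. The highest, 0.38, was for replicate 3 in BD against sham. With 3 candidates each, 4 of 6 arrays correlated best with their own number in BD against sham and in SEW against sham. The count was 2 in BD/SEW against BD, 3 in BD/SEW against SEW and 5 in BD/SEW against sham. No pairing was taken, and a batch was not tested. With the replicate block the count of all called genes was 69 instead of 84 in BD against sham, 1018 instead of 830 in SEW against sham, 3 instead of 2 in BD/SEW against BD, 1504 instead of 1392 in BD/SEW against SEW, 432 instead of 408 in BD/SEW against sham and 146 instead of 135 in the interaction. The only member call lost was Aqp4 in BD/SEW against sham. Over all genes, the count ran over the other settings from 13 (compared arrays only) to 499 (without the 3 arrays) in BD against sham, from 12 (airway covariate) to 1556 (array weights) in SEW against sham and from 0 (dim genes left out) to 8 (compared arrays only) in BD/SEW against BD. It ran from 629 (an adjusted p under 0.01) to 2506 (array weights) in BD/SEW against SEW, from 1 (airway covariate) to 2685 (array weights) in BD/SEW against sham and from 24 (an adjusted p under 0.01) to 464 (array weights) in the interaction. Aqp7 gave no value with dim genes left out.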
